A study of Mus musculus with 12 samples.

Results

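The hormones of the anterior pituitary and 3 genes that regulate the cells making them were examined in hypothalamus RNA of B6.CAST-17 congenic and wild type B6 mice, with skeletal muscle as background. The 9 genes were Gh, Prl, Cga, Lhb, Fshb, Tshb, Ghrhr, Pou1f1 and Lhx3. A probe was assigned to a gene where the platform annotation gave the gene's current name or a synonym. Of the 9 genes, 7 had a probe, with 1 probe each, out of 33012 probes on the array, and Fshb and Pou1f1 were not analysed here. The members lie on chromosomes 2, 3, 4, 6, 7, 11, 13 and 16, and none lies on chromosome 17, which carries the transferred segment.

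The congenic males were homozygous for a chromosome 17 segment of the CAST strain on the B6 background, and the hypothalamus titles call them short congenics. Wild type males were B6. The labels give 3 mice per strain and no age, and each of the 4 groups (congenic hypothalamus, wild type hypothalamus, congenic muscle, wild type muscle) held 3 one-colour arrays. The values were taken as log2 intensities, a base inferred from their range of 5.35 to 21.1. Fewer cells of a type and less RNA per cell cannot be told apart in such tissue samples.

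The anterior pituitary hangs below the hypothalamus and is controlled by it through releasing and inhibiting factors carried in portal blood. Somatotropes make growth hormone (Gh), lactotropes make prolactin (Prl), thyrotropes make thyrotropin and gonadotropes make lutropin and follitropin. Thyrotropin, lutropin and follitropin share the alpha subunit Cga and differ in their beta subunit, Tshb, Lhb or Fshb. The pituitary is a separate organ, but its pars tuberalis wraps the stalk and the median eminence at the base of the hypothalamus, and its cells make Cga and Tshb. Lhx3 and Pou1f1 are transcription factors of the anterior pituitary, and Ghrhr is the receptor through which the hypothalamic factor Ghrh drives somatotropes.

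Promoters of 4 members are given because their probes carry the patterns described next. Prl was high on a single array, and Cga and Tshb were high on the same arrays as each other. For Lhb the strains did not overlap in hypothalamus, but its difference did not pass (limma adjusted p = 0.936). Congenic arrays lay all above wild type for 3.47% of all probes and all below for 5.69%. Each promoter is the RefSeq sequence of assembly GRCm38.p6, 5′ to 3′ on the gene's strand. It runs from 250 bases before to 50 bases after the gene start. Of the 9 members, 7 had an entry. They lie at chr13:27057320-27057619 (plus strand) for Prl, chr4:34893529-34893828 (plus strand) for Cga, chr3:102782665-102782964 (minus strand) for Tshb and chr7:45420696-45420995 (plus strand) for Lhb. Capitals mark matches, on either strand, to ATGNATA (the core of sites of Pou1f1), TAATTA (LIM homeodomain factors such as Lhx3), CAAGGNCA (the nuclear receptor Nr5a1 of gonadotropes) and TATAAA (the TATA box).
Prl: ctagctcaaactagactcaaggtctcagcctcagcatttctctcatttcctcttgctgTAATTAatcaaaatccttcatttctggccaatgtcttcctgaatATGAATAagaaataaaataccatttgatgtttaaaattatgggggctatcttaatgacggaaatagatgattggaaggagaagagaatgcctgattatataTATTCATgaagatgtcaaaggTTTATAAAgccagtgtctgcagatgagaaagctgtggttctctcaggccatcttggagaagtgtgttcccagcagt
Cga: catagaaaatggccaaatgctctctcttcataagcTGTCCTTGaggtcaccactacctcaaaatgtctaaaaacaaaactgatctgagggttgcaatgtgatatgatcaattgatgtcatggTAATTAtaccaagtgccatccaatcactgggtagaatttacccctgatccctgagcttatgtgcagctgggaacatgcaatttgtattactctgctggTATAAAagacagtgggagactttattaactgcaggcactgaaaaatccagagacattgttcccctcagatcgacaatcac
Tshb: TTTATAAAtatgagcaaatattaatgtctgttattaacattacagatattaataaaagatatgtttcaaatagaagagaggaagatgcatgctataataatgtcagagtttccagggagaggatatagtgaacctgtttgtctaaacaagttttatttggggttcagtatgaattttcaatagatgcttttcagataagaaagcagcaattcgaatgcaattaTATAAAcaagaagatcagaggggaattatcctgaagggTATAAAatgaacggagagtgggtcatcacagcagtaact
Lhb: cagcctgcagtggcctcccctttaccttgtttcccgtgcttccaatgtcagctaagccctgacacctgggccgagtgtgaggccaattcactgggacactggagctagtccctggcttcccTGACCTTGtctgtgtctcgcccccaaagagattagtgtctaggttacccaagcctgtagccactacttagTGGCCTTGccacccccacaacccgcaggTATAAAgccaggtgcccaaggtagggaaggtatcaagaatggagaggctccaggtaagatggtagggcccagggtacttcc
The Prl promoter held 2 matches to ATGNATA, starting 148 and 47 bases before the gene start, and 1 to TAATTA. The Cga promoter held 1 match to TAATTA and 1 to CAAGGNCA. The Lhb promoter held 2 matches to CAAGGNCA, starting 129 and 59 bases before the gene start. The Tshb promoter held TATAAA only. All 4 had TATAAA 24 to 31 bases before the gene start, and in Prl and Tshb a TTTATA match on the other strand overlapped a TATAAA. Of all 32851 promoters in the table, 8.84% held ATGNATA, 5.29% TAATTA, 6.71% CAAGGNCA and 13.6% TATAAA. A match is a stretch of letters and not a measured binding site.

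Over all probes, 1 hypothalamus array stood apart from the rest. Wild type hypothalamus array 1 correlated with the 5 others of its tissue at a Spearman's rho of only 0.420 to 0.461 across all probes. It was the highest of the 6 hypothalamus arrays for 38.1% of the probes, where the other 5 were so for 10.1% to 15.9%. Low values set it apart as well. On wild type array 1, 2283 probes lay more than 3 log2 units below the lowest of the others, and 641 lay as far above the highest. Each of the other 5 arrays had 0 probes that far below. The strain differences of the members in hypothalamus are therefore given with and without it. The distributions of the values differed between muscle and hypothalamus, as after separate normalization, so the 2 tissues are set side by side, also as percentiles among the probes of an array, and were not tested against each other.

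Growth hormone and prolactin were high on congenic hypothalamus array 1 alone. Gh was 17.46, 8.04 and 8.86 on congenic hypothalamus arrays 1, 2 and 3, against 7.57, 7.61 and 8.64 on wild type hypothalamus arrays 1, 2 and 3. The value on congenic array 1 was at percentile 98.9 of its array, and the other 5 were at percentiles 10.8 to 48.0. In muscle Gh was 9.05, 7.69 and 9.69 on the congenic arrays, against 7.68, 7.99 and 8.72 on the wild type arrays. Outside congenic hypothalamus array 1, then, no hypothalamus value of Gh was above the highest muscle value.

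Prl followed the same array. It was 14.94, 8.20 and 8.15 in congenic hypothalamus, against 9.27, 8.38 and 8.08 in wild type hypothalamus. Congenic array 1 was at percentile 95.3 for Prl, and the others were at percentiles 27.6 to 54.5. On 5 of the 6 hypothalamus arrays Prl was above its highest muscle value of 8.11, and the exception was wild type array 3. In muscle Prl was 7.33, 7.66 and 7.74 on the congenic arrays, against 7.83, 7.98 and 8.11 on the wild type arrays, so that the muscle strains did not overlap, with congenic lower. Over all probes, 5.27% had congenic muscle arrays all below wild type, and the difference of Prl in muscle was -0.40 (limma adjusted p = 0.835).

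**Figure D1:**
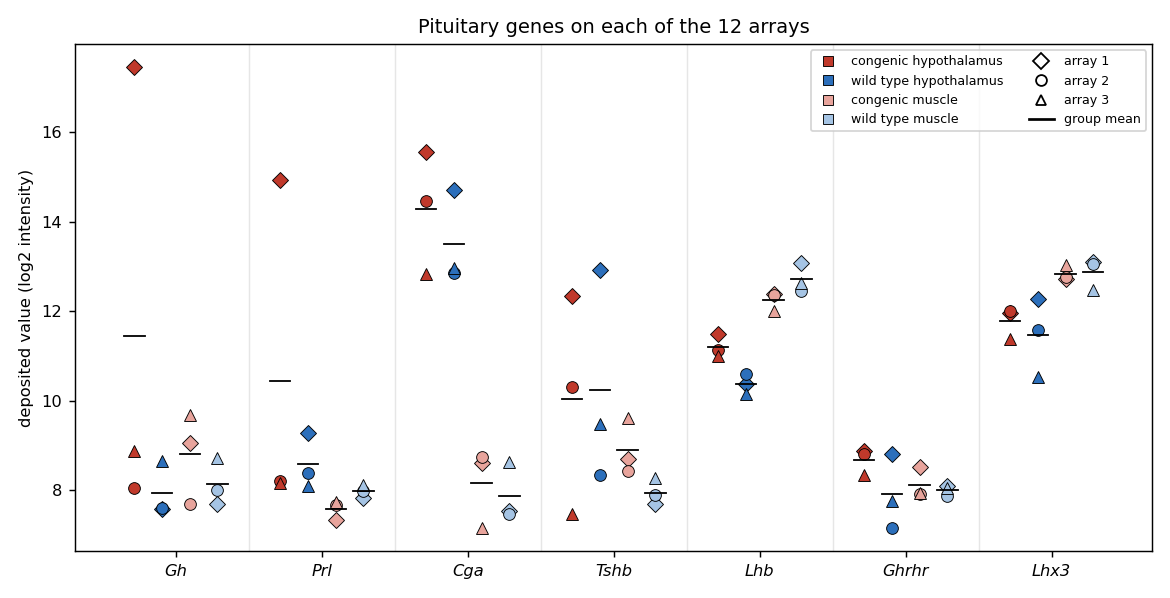
Deposited log2 values (vertical axis) of the 7 measured genes on all 12 arrays, with symbols for array number, colours for group and a line at each group mean. Gh (17.46) and Prl (14.94) stand apart on congenic hypothalamus array 1, Cga is higher on all hypothalamus arrays than on all muscle arrays, and Lhb and Lhx3 are lower on all hypothalamus arrays than on all muscle arrays.

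Only a few probes stood out on congenic hypothalamus array 1. On that array 6 of 33012 probes (0.0182%), and 2 of the 7 members, were more than 3 log2 units above the highest of the other 5 hypothalamus arrays, a limit chosen after the values were seen. Gh ranked first with an excess of 8.60, followed by Prl with 5.67 and Pomc with 5.21, and the other 3 probes had no gene name. The same count was 26 on congenic array 2, 19 on congenic array 3, 641 on wild type array 1, 3 on wild type array 2 and 4 on wild type array 3. The largest excess on those arrays was 6.87, 8.22, 9.33, 4.18 and 6.93, so an excess of this size on 1 array was not limited to congenic array 1.

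Pomc, the precursor of corticotropin in the pituitary, is also made by arcuate neurons of the hypothalamus. It was 18.18, 12.77 and 11.97 in congenic hypothalamus, against 8.68, 12.97 and 12.97 in wild type hypothalamus. The arrays other than congenic 1 and wild type 1 thus lay within about 1 log2 unit of each other, between 11.97 and 12.97. In muscle Pomc was 10.72, 11.89 and 10.76 on the congenic arrays, against 9.45, 9.02 and 8.40 on the wild type arrays, without overlap. The muscle difference of 2.17 did not pass (limma adjusted p = 0.835, unadjusted p = 0.000858).

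**Figure D2:**
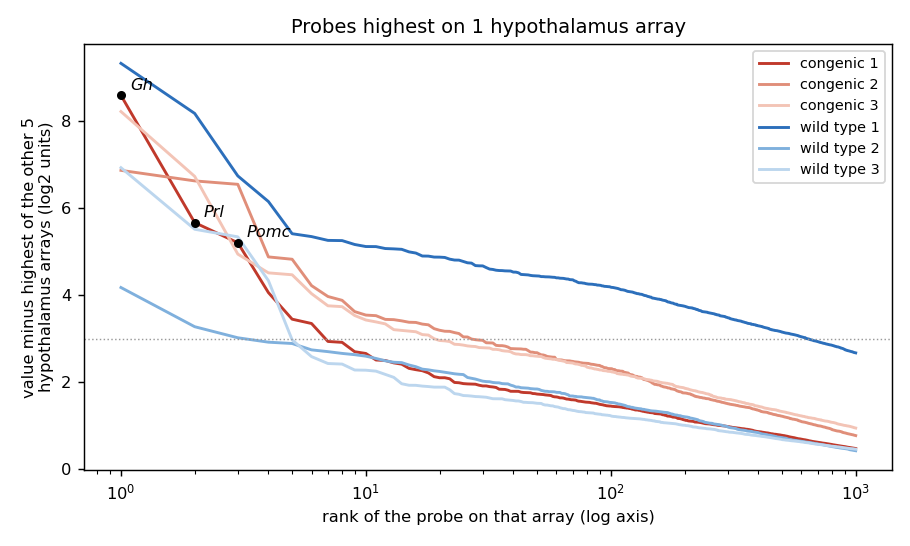
For each hypothalamus array, the 1000 probes with the largest excess of that array over the highest of the other 5 (vertical axis, log2 units), by rank (log axis). Gh, Prl and Pomc are the first 3 probes on congenic array 1, and wild type array 1 lies above the other arrays over most ranks.

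Cga, the shared alpha subunit, was measured well above its muscle values on every hypothalamus array. It was 15.56, 14.46 and 12.83 in congenic hypothalamus, against 14.72, 12.86 and 12.96 in wild type hypothalamus. In muscle it was 8.61, 8.74 and 7.15 on the congenic arrays, against 7.53, 7.46 and 8.62 on the wild type arrays. The lowest hypothalamus value was thus above the highest muscle value, and percentiles were 86.1 to 96.6 in hypothalamus and 1.44 to 42.4 in muscle. Of the 7 members only Cga had all hypothalamus arrays above all muscle arrays, where 6.91% of all probes did. The strain means of 14.28 ± 1.37 in congenic and 13.51 ± 1.05 in wild type hypothalamus (SD, n = 3 each) overlapped.

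Tshb, the beta subunit of thyrotropin, varied most between arrays after Gh and Prl. It was 12.35, 10.30 and 7.47 in congenic hypothalamus, against 12.92, 8.33 and 9.48 in wild type hypothalamus. Its 3 highest arrays were wild type 1, congenic 1 and congenic 2, which were also the 3 highest for Cga, and congenic array 3 was the lowest for both. In muscle Tshb was 8.68, 8.42 and 9.62 on the congenic arrays, against 7.68, 7.88 and 8.26 on the wild type arrays. Congenic muscle lay above wild type muscle without overlap, as 6.65% of all probes did, and the difference of 0.96 did not pass (limma adjusted p = 0.835). Only the 2 arrays numbered 1 and congenic array 2 exceeded the highest muscle value of 9.62.

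Array 1 of both strains lay above the other 4 hypothalamus arrays for 3 of the 7 members (Prl, Cga and Tshb), where 10.1% of all probes had that order. It was also met for 3 of 14 pituitary transcription factor genes (Pitx1, Otx2 and Isl1) and for Pax7 alone among the 4 corticotrope and intermediate lobe genes. Further lists had it for Cdh1 (1 of 4 pituitary stem cell genes), Vip (1 of 9 neuropeptides), Aqp1 (1 of 4 choroid plexus genes) and Alas2 (1 of 2 blood genes), so it was not limited to pituitary genes. The other genes of these lists did not share it. Wild type array 1 was the highest for 5 and the lowest for 4 of the 14 transcription factor genes, and congenic array 1 was the highest for 2 and the lowest for 2. Pitx1, a homeobox factor of all anterior pituitary lineages, was 11.04, 8.62 and 7.83 in congenic hypothalamus, against 11.13, 7.97 and 8.79 in wild type hypothalamus. Pax7, a factor of intermediate lobe cells, was 10.19, 7.50 and 6.64 in congenic hypothalamus, against 10.85, 7.36 and 7.85 in wild type hypothalamus. Both were lowest on congenic array 3. In muscle Pitx1 was 8.82 to 9.77 and Pax7 9.39 to 10.02, above all hypothalamus arrays other than array 1 of each strain. These 2 genes were singled out after their values were seen. Wild type array 1 was the highest of its tissue for 38.1% of all probes, and the part of this in its high values for Tshb, Pitx1 and Pax7 was not tested.

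**Figure D3:**
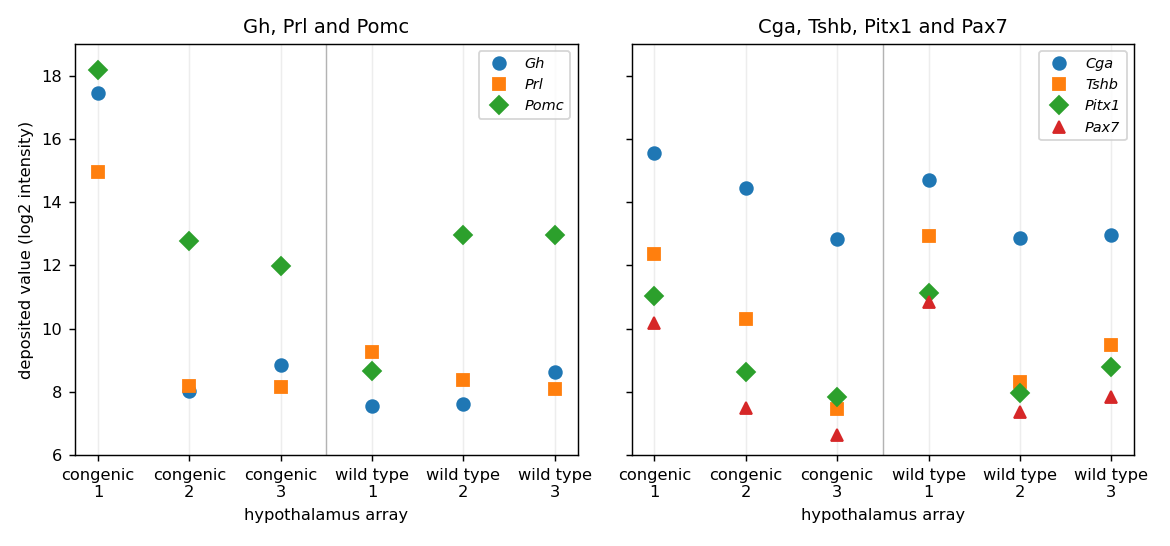
Deposited log2 values of 7 genes on the 6 hypothalamus arrays (horizontal axis), congenic arrays left of wild type arrays. Gh, Prl and Pomc (left) are highest on congenic array 1, whereas Cga, Tshb, Pitx1 and Pax7 (right) are high on array 1 of both strains.

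Lhb, the beta subunit of lutropin, was the only member whose strains did not overlap in hypothalamus. It was 11.49, 11.13 and 10.99 in congenic hypothalamus, against 10.37, 10.60 and 10.15 in wild type hypothalamus. The means were 11.20 ± 0.26 and 10.37 ± 0.22 (SD, n = 3 each), and the difference of 0.83 (SE 0.58) did not pass limma (adjusted p = 0.936). All congenic arrays lay above all wild type arrays for 3.47% of all probes, and for 1 of the 7 members. They lay below all wild type arrays for a further 5.69% of all probes, and for 0 members. In muscle Lhb was higher than in hypothalamus, at 12.38, 12.36 and 12.003 on the congenic arrays, against 13.08, 12.45 and 12.63 on the wild type arrays. The muscle strains did not overlap either, but congenic was lower (-0.47, SE 0.25, limma adjusted p = 0.835). The hypothalamus difference minus the muscle difference was 1.30 (SE 0.56, limma unadjusted p = 0.0383, adjusted p = 0.913). It was the only one of the 7 members with an unadjusted p under 0.05 in this comparison of the tissues, where 3.63% of all probes had one and 0 passed after adjustment.

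Lhx3, the LIM homeodomain factor, behaved like Lhb in its tissue order. It was 11.95, 12.01 and 11.38 in congenic hypothalamus, against 12.27, 11.57 and 10.54 in wild type hypothalamus. In muscle it was 12.72, 12.76 and 13.03 on the congenic arrays, against 13.09, 13.05 and 12.48 on the wild type arrays. The strains overlapped in both tissues, and all muscle values were above all hypothalamus values. That tissue order was found for 2 members, Lhb and Lhx3, and for 13.3% of all probes. In muscle Lhb was at percentiles 79.4 to 85.8 and Lhx3 at 82.4 to 85.9. Each of the 2 had 1 probe, and whether its signal came from the named gene alone was not tested.

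Ghrhr, the receptor of somatotropes, was dim in both tissues. It was 8.88, 8.81 and 8.33 in congenic hypothalamus, against 8.80, 7.15 and 7.75 in wild type hypothalamus, at percentiles of 3.06 to 48.3. In muscle it was 8.52, 7.90 and 7.93 on the congenic arrays, against 8.09, 7.88 and 8.05 on the wild type arrays. Ghrhr thus gave no high value on congenic hypothalamus array 1, where Gh was highest. No detection calls were given, so values in this range cannot be told from background.

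No member passed the test of the strain difference in hypothalamus. Limma called 0 of the 7 member probes at an adjusted p under 0.05 and 0 at an unadjusted p under 0.05, and over all 33012 probes it called 0 (0%) and 658 (1.99%). The congenic minus wild type difference was above 0 for 6 of the 7 members, with a median of 0.77, where 46.3% of all probes had a positive difference. The largest was that of Gh, with group means of 11.45 ± 5.22 in congenic and 7.94 ± 0.61 in wild type hypothalamus (SD, n = 3 each), a difference of 3.51 (SE 2.18, limma adjusted p = 0.936). The difference was 1.85 (SE 1.68) for Prl, 0.77 (SE 0.88) for Cga, 0.77 (SE 0.54) for Ghrhr, 0.32 (SE 0.67) for Lhx3 and -0.20 (SE 1.48) for Tshb, with limma adjusted p-values of 0.936 to 0.981.

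The differences of Gh and Prl rested on congenic array 1. Without it they were 0.51 (SE 0.58) and -0.40 (SE 0.62), that of Cga was 0.14 and that of Tshb was -1.35. Without wild type array 1 in its place, all 7 differences were above 0, with a median of 1.22, where 49.3% of all probes were. In that fit Ghrhr (1.22, limma unadjusted p = 0.0319) and Lhb (0.83, limma unadjusted p = 0.0448) had an unadjusted p under 0.05, as 5.33% of all probes had, both with an adjusted p of 0.900. Tshb differed by 1.14 and Cga by 1.38 in the same fit. Without both arrays the differences were 0.32 for Gh, -0.06 for Prl, 0.74 for Cga, -0.01 for Tshb, 0.68 for Lhb, 1.12 for Ghrhr and 0.64 for Lhx3, each with a limma adjusted p of 0.900 or more. Of the members, Gh and Prl thus moved by more than 1.5 log2 units when congenic array 1 was left out. With limma array weights, which gave wild type array 1 a weight of 0.10 and congenic array 1 one of 1.98, 6 of the 7 members had an unadjusted p under 0.05, as 10.1% of all probes had. Lhx3 was the exception, and the adjusted p-values of the 7 were 0.360 to 0.616.

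**Figure D4:**
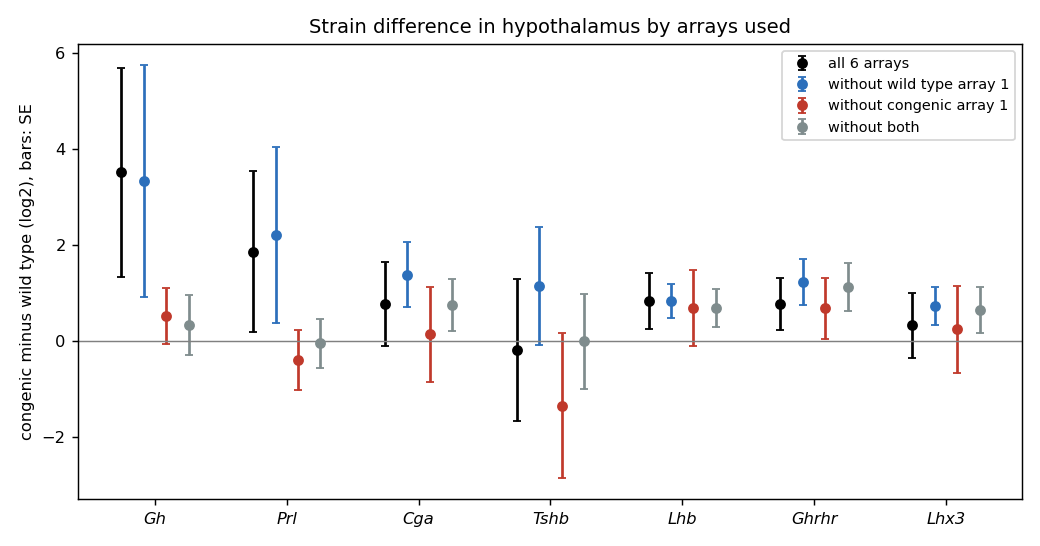
Congenic minus wild type difference in hypothalamus (log2 units, bars show SE from limma) for the 7 measured genes with all 6 arrays and with array 1 of either or both strains left out. Gh falls to 0.51 and Prl to -0.40 without congenic array 1, while Lhb lies between 0.68 and 0.83 in all 4 fits.

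In muscle, limma called 0 of the 7 members, and 6 of all 33012 probes (0.0182%). At an unadjusted p under 0.05 it gave 0 members and 5.01% of all probes. The muscle differences were 0.67 for Gh, 0.29 for Cga, 0.11 for Ghrhr and -0.04 for Lhx3, beside those of Prl, Tshb and Lhb given above. The highest muscle value of Gh, Prl, Cga and Ghrhr was 9.69, 8.11, 8.74 and 8.52.

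Other genes of the hypothalamus and pituitary axis showed no strain difference that passed. Of the hypothalamic releasing factors and related genes 7 of 8 were measured, 0 passed in either direction, and 3 of 7 differences were positive with a median of -0.37. Ghrh, which drives Gh release, was 12.72, 13.09 and 10.14 in congenic hypothalamus, against 7.28, 11.45 and 11.50 in wild type hypothalamus. The Ghrh difference of 1.91 (SE 1.29) became 0.51 without wild type array 1. In muscle Ghrh was 9.56 to 11.90, and only 2 of the 6 hypothalamus arrays exceeded its highest muscle value. Somatostatin (Sst), which inhibits Gh release, differed by -0.83, the thyrotropin-releasing hormone gene Trh by -0.37 and Crh, which drives Pomc cells, by 0.60. The sign for Crh turned without wild type array 1 (-0.17). Kiss1 and Tac2, neuropeptides that act on the neurons of gonadotropin-releasing hormone, differed by 0.15 and -0.58. Kiss1 differed by 1.35 without wild type array 1 and by -0.06 without congenic array 1, and Tac2 by -0.055 without wild type array 1. Tyrosine hydroxylase (Th), which makes the dopamine that restrains prolactin, was 14.72, 14.31 and 14.99 in congenic hypothalamus, against 15.13, 15.81 and 15.38 in wild type hypothalamus, without overlap (-0.77, limma adjusted p = 0.936). Such an order with congenic lower was met for 5.69% of all probes. In muscle Th was 13.83 to 14.77. Th and Crh exceeded their highest muscle value on 4 of the 6 hypothalamus arrays, and Sst, Trh, Kiss1 and Tac2 on all 6.

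Receptors on anterior pituitary cells were measured for 9 of 12 genes, with 0 passing in either direction. Of the 9 differences 1 was positive, where 46.3% of all probes had a positive difference, and the median was -0.46. The ghrelin receptor Ghsr differed by 1.39 (SE 0.67), the dopamine receptor Drd2 by -0.89, the thyrotropin-releasing hormone receptor Trhr by -0.41, the corticotropin-releasing hormone receptor Crhr1 by -0.34, the vasopressin receptor Avpr1b by -0.55 and the somatostatin receptor Sstr2 by -0.46. Esr1 differed by -0.57, Thrb by -0.29 and Ghr by -0.73. The sign turned without wild type array 1 for Crhr1 (0.33) and Esr1 (0.93). Trhr and Ghr had all congenic arrays below all wild type arrays, as 5.69% of all probes had. None of the 9 was highest on congenic array 1. Drd2 and Sstr2 exceeded their highest muscle value on all 6 hypothalamus arrays, Ghsr on 4 and Thrb on 3. Crhr1 and Esr1 did so on 1 array each, and Trhr, Avpr1b and Ghr on 0. Anterior pituitary transcription factors were measured for 14 of 18 genes, with 0 passing, 6 positive differences and a median of -0.16, from 0.94 for Foxl2 to -1.05 for Otx2. Congenic array 1 was the highest hypothalamus array for 2 of these 14 (14.3%), against 10.1% of all probes and 5 of the 7 members. Among those 5, its excess over the next array was only 0.06 for Ghrhr and 0.37 for Lhb. Congenic array 1 was also the highest for 3 of 4 choroid plexus genes, 2 of 4 pituitary stem cell genes and 2 of 9 neuropeptides, but for 0 of 7 releasing factors.

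Genes of hormone processing and secretory granules, which neurons and pituitary cells share, were measured for 8 of 9 genes. Of these 0 passed, 4 differences were positive and the median was 0.00, from 2.79 for the granin Scg2 to -0.46 for Chga. Scg2 was 9.34 on wild type array 1 and 15.63 to 18.51 on the other 5 hypothalamus arrays, and differed by 0.33 without wild type array 1. None was highest on congenic array 1. Genes through which growth hormone and prolactin act were measured for 9 of 11, with 0 passing, 2 positive differences and a median of -0.40. They ran from 0.22 for Socs2 to -1.59 for Cish, a feedback inhibitor of cytokine receptors (limma unadjusted p = 0.0475, adjusted p = 0.936).

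Markers of cells that could be taken along with the hypothalamus gave these values beside the pituitary genes. Pomc and other genes of corticotropes and the intermediate lobe were measured for 4 of 5, with a median level of 10.56, 9.76 and 10.42 on the congenic arrays, against 8.64, 9.95 and 10.50 on the wild type arrays. Pituitary stem cell and folliculostellate markers (4 of 6) had medians of 10.49, 10.44 and 9.98, against 9.99, 9.73 and 10.10. For the posterior pituitary and magnocellular list (4 of 4) the medians were 13.52, 13.93 and 12.45 in congenic hypothalamus, against 12.25, 12.42 and 12.77 in wild type hypothalamus. Avp and Oxt, the hormones of magnocellular neurons, were 17.22 and 18.76 on congenic array 1, where the range over the other 5 arrays was 15.72 to 17.95 for Avp and 17.43 to 19.22 for Oxt. Neither of the 2 stood out on congenic array 1, unlike Gh, Prl and Pomc.

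Hypothalamic neuropeptides (9 of 11 measured) had medians of 15.31, 15.30 and 15.49 in congenic hypothalamus, against 13.53, 15.21 and 14.88 in wild type hypothalamus. Pan-neuronal genes (8 of 9) had medians of 14.70, 14.50 and 14.53, against 11.29, 14.36 and 13.72. Wild type array 1 had the lowest median of the 6 for both lists. By gene it was the highest for 4 and the lowest for 4 of the 9 neuropeptides, and the highest for 2 and the lowest for 3 of the 8 pan-neuronal genes. The medians of both lists were above those of every muscle array (8.18 to 9.85) on all 6. Not every pan-neuronal gene had that order. Stmn2, Nefl and Map2 exceeded their highest muscle value on all 6 hypothalamus arrays, and Tubb3 and Eno2 on 5. Syp did so on 4, Syt1 on 1 and Snap25 on 0. Median differences between the strains were 0.45 for neuropeptides, 0.23 for pan-neuronal genes, 1.29 for oligodendrocytes (5 of 7 measured), 0.15 for astrocytes (3 of 5), 0.56 for the choroid plexus (4 of 5), 1.03 for the thalamus (2 of 4), 0.83 for blood (2 of 5) and -0.28 for skeletal muscle (7 of 9), with 0 genes of these lists passing limma. They were 0.26 for the corticotrope and intermediate lobe list, 0.48 for the stem cell list and 0.79 for the posterior pituitary list, again with 0 genes passing. Without wild type array 1 the medians were 0.25 for neuropeptides, 0.03 for pan-neuronal genes, 0.05 for astrocytes, -0.63 for the thalamus, 0.41 for blood, -0.47 for skeletal muscle and 0.15 for the corticotrope list, and that of the choroid plexus was -0.005. Without congenic array 1 they were 0.10 for neuropeptides, -0.04 for astrocytes, 0.18 for the choroid plexus, 0.48 for blood, -0.17 for skeletal muscle, 1.95 for oligodendrocytes and 0.54 for the corticotrope list. The corticotrope median was -0.50 without both arrays. Over all 13840 named genes the median was -0.02. The largest and smallest differences were 2.77 (Pomc) and -0.58 (Pax7) among corticotrope genes, 1.28 (Sox2) and 0.27 (Cxadr) among stem cell genes, and 0.83 (Rax) and 0.71 (Col25a1) among posterior pituitary genes. They were 2.44 (Cartpt) and -0.67 (Vip) for neuropeptides, 1.80 (Eno2) and -0.01 (Stmn2) for neurons, 4.51 (Mbp) and 1.11 (Mog) for oligodendrocytes, and 0.75 (Slc1a3) and -0.18 (Aldh1l1) for astrocytes. For the choroid plexus they were 0.96 (Ttr) and -0.50 (Aqp1), for the thalamus 2.36 (Calb2) and -0.30 (Lef1), for blood 2.18 (Hba-a1) and -0.52 (Alas2), and for muscle 1.48 (Ckm) and -1.38 (Mylpf). Of the 96 genes measured on all lists, members left out, the sign turned for 30 without wild type array 1 and for 12 without congenic array 1. Besides Crh, Crhr1 and Esr1, those turned without wild type array 1 included Eno2 (-1.41), Mog (-0.49), Ttr (-0.46), Aqp1 (0.24), Calb2 (-0.61), Alas2 (0.31) and Pax7 (0.50), and Socs2 (-0.63). The part of these cells in the pituitary values was not tested.

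The genes whose profile over the 6 hypothalamus arrays was most like the mean profile of the 5 measured hormones were mostly low on the hypothalamus arrays other than congenic array 1. The mean was of centred but unscaled values, so Gh (SD 3.84) and Prl (SD 2.70) weighed more in it than Tshb (2.17), Cga (1.17) and Lhb (0.50). In this comparison a gene was represented by its best-correlating probe. The 10 with the highest Pearson correlation, among 5211 probes with an SD of at least 1, were Mc5r, Olfr410, Olfr870, Defb8, Olfr1302, Olfr914, Cacng6, Atxn2, Epcam and St8sia1, with r of 0.90 to 0.97 over 6 arrays. Of these 10, 0 were among the first 10 by Spearman's rho and 2 were among the first 10 without wild type array 1. They reached 9.94 to 11.51 on congenic array 1 and lay at 6.55 to 9.26 on the other 5 hypothalamus arrays. Their muscle medians were 7.58 to 12.75, and those of Mc5r (11.20) and Cacng6 (12.75) were above their own values on congenic hypothalamus array 1 (10.82 and 9.94). Mc5r is a receptor for peptides cut from Pomc, and Epcam is an adhesion protein of epithelial cells. Epcam was 11.51, 8.52 and 7.85 in congenic hypothalamus, against 8.38, 8.37 and 9.24 in wild type hypothalamus. By excess of congenic array 1 over the other 5, the 10 first genes that are not members were Pomc (5.21), St8sia1 (2.92), Olfr410 (2.71), Defb8 (2.52), Olfr914 (2.505), Oacyl (2.45), Epcam (2.27), Olfr870 (2.11), Cd7 (1.97) and Fndc3c1 (1.96). These profiles share their arrays with the hormones and are given as a description.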

How the data were processed

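Tissue was frozen, its RNA purified with TRI-Reagent and Qiagen columns, and digoxigenin-labelled cRNA hybridised to 12 one-colour chemiluminescent arrays, per the labels' protocols. The deposited values were taken as log2 intensities, a base inferred from their range. For the software, background correction and detection calls, nothing is given in the sources used here. Sorted values of the arrays of 1 tissue lay within 0.01 of each other at every rank and differed by up to 0.873 between tissues, as after quantile normalization by tissue. Signal over background is unknown, and precision is limited by how few arrays there are. No array duplicated another. The design text calls the mice biological replicates. The values were used without floor or filter.

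Probes were named by platform annotation (14411 with 1 symbol, 247 with several, 18354 with none) and current symbols of GRCm38.p6. List genes were represented by their brightest probe. Congenic minus wild type was fitted within a tissue by limma's moderated linear model with a mean-variance trend (limma 3.58.1, R 4.3.3), with Benjamini-Hochberg adjustment over all probes and a threshold of 0.05. The difference of strain effects between tissues was an interaction over 12 arrays, which were taken as independent. Whether the muscle and hypothalamus arrays of a strain came from the same mice was not established. The scripts were tested on simulated data. Same-numbered arrays of the strains gave correlations of deviations of -0.13 to 0.14 in hypothalamus and 0.01 to 0.07 in muscle, so they were not paired.

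The members and gene lists were chosen with earlier results of these data known. Named are all members, the releasing factors and receptors, the largest and smallest difference of each list, the 10 genes most like the hormones and the 10 with the largest excess of congenic hypothalamus array 1. No probe is named Fshb in the annotation, so the hormone profile used 5 of 6 hormones.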

Additional observations from a re-analysis of the deposited data

Results flagged for a closer look

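Lhb was flagged because its strain difference ran in opposite directions in the 2 tissues, with all 3 congenic arrays above all 3 wild type arrays in hypothalamus and below them in muscle. Such a reversal was found for 0.739% of all probes. The hypothalamus difference minus the muscle difference was 1.30 (SE 0.56), with a limma unadjusted p of 0.0383 and an adjusted p of 0.913, so it did not pass over all probes. Limma called 0 of 33012 probes (0%) in this comparison, and 3.63% had an unadjusted p under 0.05. With 1 array left out at a time, the Lhb value was 1.12 to 1.43. Its limma unadjusted p then ran from 0.00862 (without wild type hypothalamus array 1) to 0.102 (without wild type muscle array 1). With the replicate block the limma unadjusted p was 0.0679, so it did not stay under 0.05 in all fits. The limma unadjusted p of 0.0383 took the muscle and hypothalamus arrays as independent, and whether they shared mice was not established. The Lhb value rests on 1 probe, and whether the signal of that probe came from Lhb alone was not tested.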

How the results depend on the processing

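Under each of the 14 alternatives in hypothalamus, limma called 0 probes and 0 of the 7 members. At an unadjusted p under 0.05 the array weights gave 6 members and 3328 probes. Gh, Cga, Lhb and Ghrhr kept their direction throughout, with leave-one-out values of 0.51 to 5.22, 0.14 to 1.50, 0.68 to 0.94 and 0.40 to 1.22. Prl ranged from -0.40 to 2.99 with 1 array left out and was -0.055 without array 1 of both strains. Tshb ranged from -1.35 to 1.14 and was 2.04 with array weights, which gave wild type array 1 a weight of 0.10. Lhx3 ranged from -0.14 to 0.73, turning negative without wild type array 3. The cause of these turns was not tested beyond the arrays left out. With the replicate block, Gh differed by 3.51 (limma adjusted p = 0.972), and no call of a member changed.

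In muscle 6 probes were called, none of them a member. The number was 2 to 8 with 1 array left out, 2 without the variance trend, 2 with the floor at the 20th percentile and 1 with 12 arrays in one fit. The interaction called 0 probes, 0 with any array left out and 1 with array weights. Of the 10 genes most like the hormones, 0 were among the first 10 by Spearman's rho and 2 without wild type array 1. The 7 measured members had 1 probe each, so the mean over a gene's probes gave the same levels. Low values could not be told from background, which limits Ghrhr and the muscle values of Gh, Prl, Cga and Tshb. It also limits the hypothalamus values of Gh and Prl outside congenic array 1, and those of Tshb that were not above its highest muscle value. Among the receptors, the same limit holds at least for Trhr, Avpr1b and the hypothalamus values of Ghr.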
